A study of Mus musculus with 66 samples.

Results

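The autophagy and lysosome gene families were followed through mouse oocyte development in the ovary and in culture. The families are the Atg genes of autophagosome formation, the LC3 and GABARAP genes, the subunits of the V-ATPase proton pump, the cathepsins and the 2 lysosome membrane genes Lamp1 and Lamp2. They were chosen by gene symbol, and 66 of the 24062 genes in the deposited table carried such a symbol. Of these, 56 reached a mean of at least 1 RPM, the reads of a gene scaled to a library total of 1000000, in 1 or more of the 24 sample groups and were kept as members. They are all 18 Atg genes, all 5 LC3 and GABARAP genes, 10 of 13 genes of the V1 sector of the pump, all 10 of its V0 sector, 11 of 18 cathepsins and both Lamp genes. The 10 genes below 1 RPM in every group were Ctse, Ctsj, Ctsq, Ctsr, Ctsm, Ctsg, Ctsw, Atp6v1g3, Atp6v1e2 and Atp6v1b1.

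The study sequenced poly(A) RNA from 66 libraries. In the ovary, germ cells were taken at E14.5, E16.5 and E18.5 and oocytes at P1 and P3, and at P4 and P6 oocytes were divided into small and large. These 9 groups of 3 libraries came from ovaries of strain C57BL/6 x B6D2F1 carrying the stella-ECFP reporter. In culture, 5000 Blimp1-mVenus positive PGCLCs (cells resembling primordial germ cells, derived from embryonic stem cells of strain C57BL/6 X 129/SvJ) were put together with 75000 somatic cells of E12.5 gonads to form a reconstituted ovary. The ROCK inhibitor Y-27632 at 10 µM was present for the first 2 days. The culture course held 9 groups of 3 libraries, from D5 to D20 after that step. At D21, oocytes of wild-type (WT) and Foxo3dNES Tg stem cells were grown under normoxia (air with 5% CO2) or hypoxia (5% O2 and 7% CO2), with 2 libraries in each of these 4 groups. A further 2 D21 groups of 2 libraries, WT and Foxo3dNES Tg, have no oxygen condition in their labels and entered no comparison. The promoter of the transgene, the number of stem cell clones and the animals or cultures behind each library are not given in the sources used here.

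Autophagy encloses cytoplasm in a double membrane that then fuses with the lysosome. Atg proteins build that membrane, and the ATG5, ATG12 and ATG16L1 complex attaches LC3 and GABARAP proteins to it. The V-ATPase acidifies the lysosome, cathepsins are proteases that work at that low pH, and LAMP proteins coat the inner face of the lysosome membrane. In mammalian oocytes the pathway is known for a role in the survival of dormant primordial follicles. FOXO3 is a forkhead transcription factor that keeps primordial oocytes dormant, and forkhead factors are known regulators of autophagy genes in other tissues.

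Depth was 13.9 to 23.2 M reads (M, 1000000) in the ovary, 14.7 to 22.8 M in the culture course and 15.9 to 21.3 M in the D21 groups with a labelled oxygen condition. At these depths 3 reads correspond to 0.129 to 0.216 RPM in the ovary libraries. The germ cell and oocyte markers (Ddx4, Dazl, Dppa3, Sohlh1, Figla, Gdf9, Zp3 and Kit) summed to between 1773 and 20796 RPM in all 66 libraries. Macrophage and blood markers summed to at most 34.00 RPM outside D9 to D11 of the culture, except in WT D21 normoxia replicate 2 (101 RPM). At D11, replicate 2 stood apart from its group. Its macrophage and blood markers summed to 593 RPM against 79.9 and 59.1 RPM in the other D11 libraries and its stroma and theca markers to 1816 RPM against 187 and 189 RPM. Results that rest on that library are given with and without it. In bulk libraries fewer expressing cells and less RNA per cell cannot be told apart.

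Of the 56 members, 46 stayed at a mean of 1 RPM or more in every group, and the width of their range over the 24 groups differed greatly. Only 2 of these 46 stayed within 2-fold. They were Atg4b, a protease that processes LC3, between 97.4 RPM (P6 small) and 157 RPM (E18.5), and Atp6v1g1, a stalk subunit of the pump, between 122 RPM (P6 large) and 225 RPM (D5). At the other end, 11 of these 46 ranged more than 10-fold. The widest of the 46 was Ctsf, encoding the cysteine protease cathepsin F, from 1.70 RPM at D20 to 121 RPM at P1, a ratio of 71.3. Next came Gabarapl1 with a ratio of 36.1, Ctsl with 23.0 and Ctsa with 20.7. The highest mean of Gabarapl1, 139 RPM, was in the Foxo3dNES Tg D21 group without an oxygen label. That group had 7.31 and 8.72 M reads a library and granulosa markers that summed to 423 to 640 RPM. The others were Atg4d, Map1lc3a, Gabarap, Ctsb, Lamp2, Atg4c and Atg9b, with ratios of 10.2 to 12.8. Without D11 replicate 2 the ratio of Ctsb was 6.35 and that of Ctsl 21.3, and 10 of the 46 ranged more than 10-fold. Members with a group mean under 1 RPM were left out of this ranking, and some of them ranged more widely. Ctsh went from 0.0591 RPM in P6 small to 117 RPM at D20. Ctsz went from 0.449 RPM in P6 large to 65.3 RPM at D11, or to 43.7 RPM at D10 without D11 replicate 2.

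**Figure D1:**
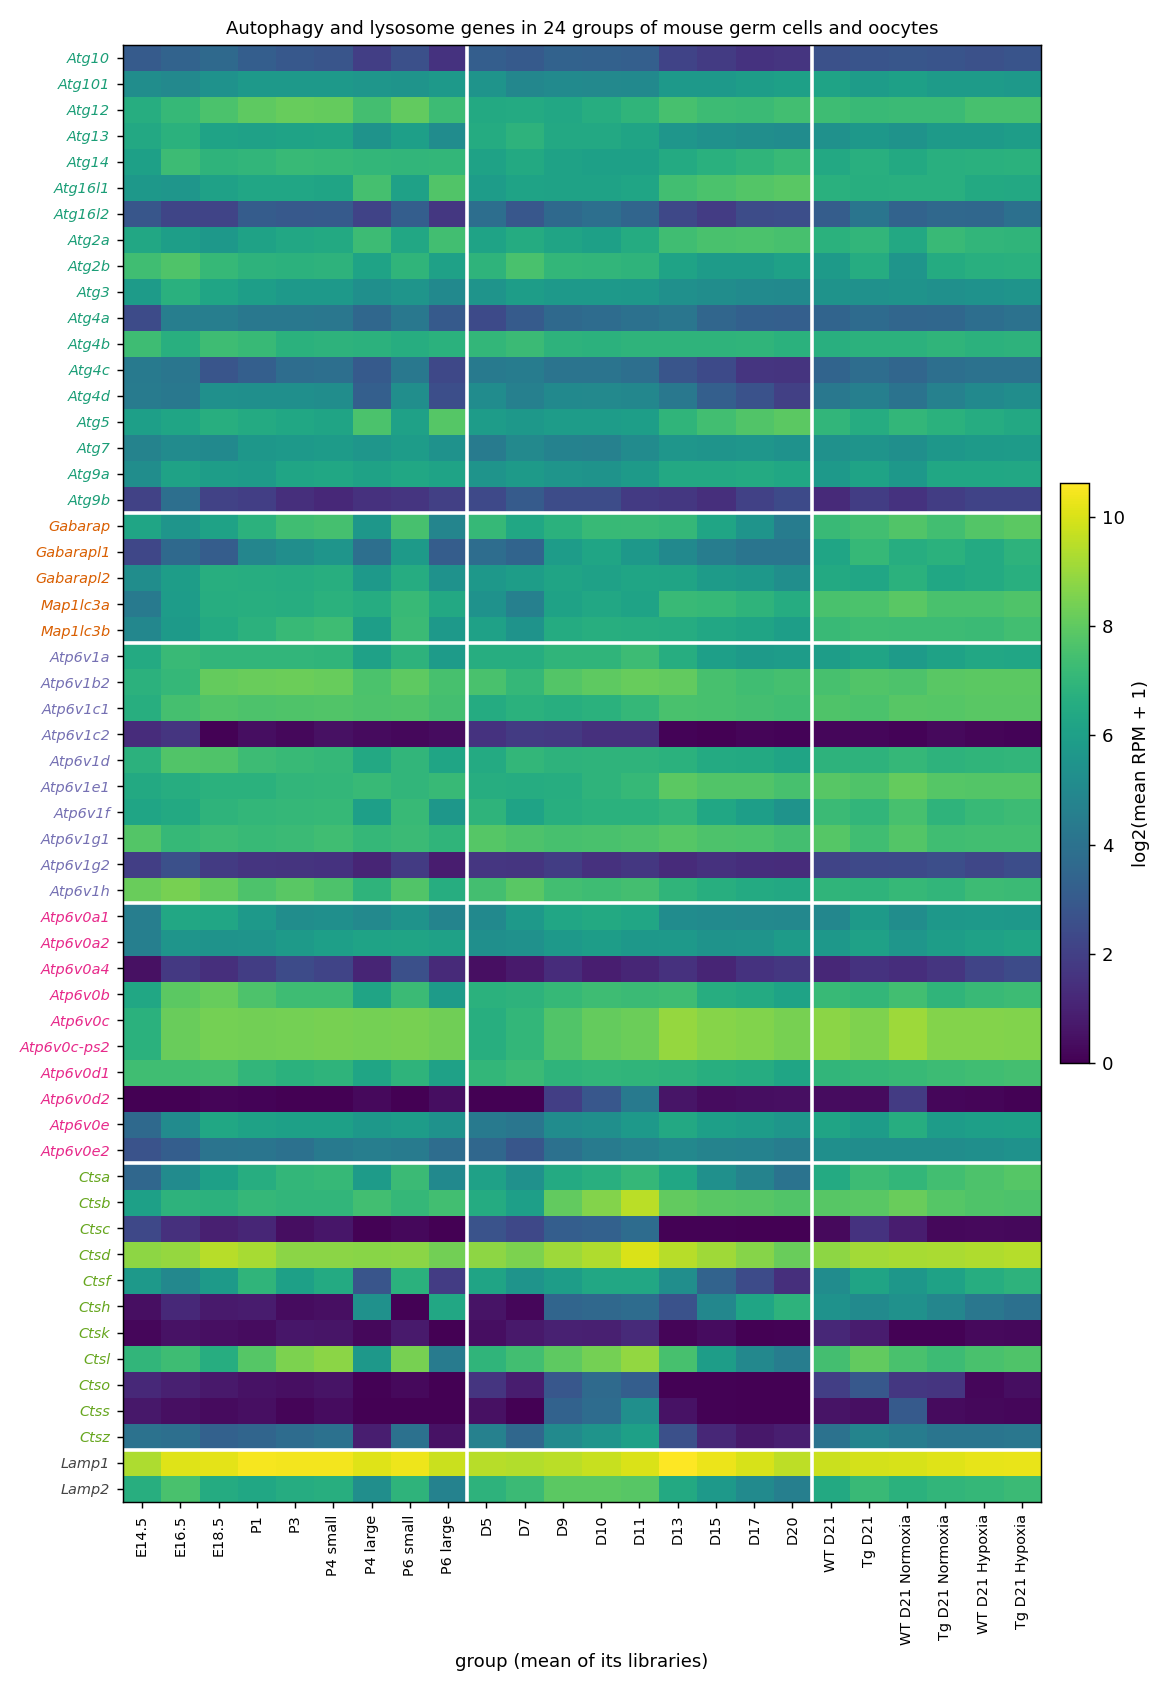
Mean level of each of the 56 members (rows, coloured by family) in the 24 groups (columns), as log2 of the group's mean RPM plus 1; vertical white lines separate ovary, culture course and D21, horizontal ones the families. Lamp1 and Ctsd stay bright in every column, while Ctsf, Ctsl and Gabarap darken in the P4 and P6 large and D15 to D20 columns, where Atg5, Atg16l1 and Ctsh brighten.

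Compared per kilobase of annotated exon, Lamp1 and Ctsd (cathepsin D, the main aspartic protease of the lysosome) were the leading members in both oocyte sizes at P6, leaving aside the gene pair described next. Lamp1 stood at 482 RPM per kb in P6 small and 327 RPM per kb in P6 large, and Ctsd at 186 and 138 RPM per kb. Gabarap was at 99.3 RPM per kb in small oocytes and 15.1 RPM per kb in large ones, while Atg5 was at 95.02 RPM per kb in large oocytes. Atp6v0c, the proton-carrying ring subunit of the pump, and its processed copy Atp6v0c-ps2 had the same number of reads in 42 of 66 libraries and never differed by more than 7 reads out of 1471 to 10425. Reads of near-identical copies cannot be told apart, so the values of both are uncertain. Both stay in the member counts, where the same reads enter under both names, and counts of V0 genes are also given without the copy. Many members share exon bases with a gene on the opposite strand. Among them are Ctsb (with Fdft1), Ctsa (Neurl2 and Pltp), Lamp1 (Grtp1), Atg4d (Kri1) and Atg2b (Gskip). Others are Gabarapl1 (1700101I11Rik), Map1lc3b (Zcchc14), Ctsz (Nelfcd), Atp6v1h (Rgs20) and Atg9a (Ankzf1). Atp6v0a4 shares exon bases with D630045J12Rik on the same strand. Whether the counting used the strand is not given in the sources used here.

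Lysosomal genes are known to share a promoter element, the CLEAR core, bound by TFEB and its relatives, and members that hold it are shown here because they belong to 4 of the families. The RefSeq promoter table (build GRCm38.p6, 250 bases before to 50 bases after each gene start) held 44 of the 56 members, with 50 promoters. The palindrome TCACGTGA lay in the promoters of 6 of these 44 genes. It was in 12% of the 50 member promoters and in 0.974% of all 32851 promoters of the same length. The shorter E-box CACGTG, which every CLEAR core contains, lay in 13 of 44 genes, in 26% of member promoters against 7.15% of all. The forkhead motif GTAAACA was in 0 of 50 member promoters and in 3.65% of all. Both strands were searched. A match is a description of the sequence, not of binding. The windows lie at chr16:45158739-45158782 (Atg3, plus strand), chr8:105566043-105566086 (Atp6v0d1, minus strand) and chr17:26676380-26676423 (Atp6v0e, plus strand). Further ones are chr16:44139366-44139409 (Atp6v1a, minus strand), chr2:164833742-164833802 (Ctsa, plus strand) and chr7:142387901-142387944 (Ctsd, minus strand). Lamp1, whose window at chr8:13159082-13159169 on the plus strand holds 4 E-boxes and no CLEAR core, is given for comparison. Capitals mark the CLEAR core, or the E-box in Lamp1, and each sequence reads 5′ to 3′ on the strand of the gene.
Atg3: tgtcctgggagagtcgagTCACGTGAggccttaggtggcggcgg
Atp6v0d1: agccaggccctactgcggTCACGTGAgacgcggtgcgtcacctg
Atp6v0e: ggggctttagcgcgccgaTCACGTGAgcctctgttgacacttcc
Atp6v1a: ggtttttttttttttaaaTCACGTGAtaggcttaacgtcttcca
Ctsa: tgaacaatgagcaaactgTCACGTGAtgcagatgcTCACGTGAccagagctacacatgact
Ctsd: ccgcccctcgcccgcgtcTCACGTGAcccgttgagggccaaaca
Lamp1: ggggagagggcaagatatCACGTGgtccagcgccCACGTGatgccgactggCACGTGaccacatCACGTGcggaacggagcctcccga
The table lists 2 starts for Ctsa. Its 2 copies of the core lie in the promoter of the second, and the promoter of the first holds none.

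The first comparison set small against large oocytes of the ovary, at P6 and at P4, which differ in growth. Each gene was tested with limma on log2(RPM + 1), and it is called where the adjusted p is under 0.05. Log2 changes below are on that scale, which understates the change of genes with low levels. At P6, 36 of the 53 members tested were higher in small oocytes and 5 were lower. Over all 15401 genes, 51.3% were called higher and 22.1% lower, and the median gene was 0.41 higher in small oocytes, so the share of members called higher (36 of 53) has to be read against that level. With median-of-ratios scaling in place of per-million scaling the all-gene median went to 0.00 and the member split to 23 higher and 17 lower, against 34.3% and 36.2% of all genes. At P4 the calls were 30 higher and 5 lower, against 48.7% and 20.5% of all genes. After rescaling they were 18 and 18, against 31.1% and 33.2% of all genes. The same 30 and 5 members were called at both ages in the same direction, and none went in opposite directions. Among all genes 45.0% were higher and 18.6% lower at both ages.

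The genes that differed most were cathepsins, and they differed in both directions. Of the 9 cathepsins tested, 5 were higher in P6 small oocytes, 2 were lower and 2 were not called. Of all genes 51.3% were higher and 22.1% lower. The cathepsin median change was 0.43, near the all-gene 0.41, so the count is no result about the family. Ctsf was at 99.9, 109 and 121 RPM in the P6 small libraries and at 2.04, 3.29 and 2.72 RPM in the large ones, a log2 change of 4.92 (SE 0.25, adjusted p = 3.58e-15). Ctsl, encoding the cysteine protease cathepsin L, was at 313, 359 and 359 RPM in small and 22.5, 18.3 and 20.6 RPM in the large ones, which is 4.01 higher on the log2 scale (SE 0.14, adjusted p = 2.51e-18). Every small library of both genes was far above every large one, and groups that do not overlap were a condition for naming them. Ctsz, encoding the exopeptidase cathepsin Z, went the same way at 14.6 ± 2.50 against 0.449 ± 0.179 RPM (SD, n = 3), and Ctsa, encoding the protective protein of the lysosomal glycosidases, at 149.9 ± 9.47 against 32.0 ± 0.939 RPM.

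Ctsh, encoding the aminopeptidase cathepsin H, showed the reverse pattern. It was at 0.112, 0.0654 and 0 RPM in the P6 small libraries, each under the level of 3 reads, and at 76.2, 74.0 and 95.7 RPM in the large ones. Its log2 change was -6.28 (SE 0.19, adjusted p = 1.57e-19), the widest of the 53 members. At P4 the 3 large libraries held 39.6, 41.4 and 40.7 RPM and the small ones 0.172, 0.588 and 0.292 RPM. In the ovary groups before P4 its highest mean was 1.35 RPM, at E16.5. Ctsb (cathepsin B) was modestly lower in small oocytes, at 133 ± 6.45 against 166 ± 7.45 RPM, and Ctsd was higher at 437 ± 7.34 against 325 ± 13.6 RPM, a log2 change of 0.43. The direction of Ctsd turned after rescaling, to -0.19 with an adjusted p of 0.141.

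All 5 LC3 and GABARAP genes were higher in P6 small oocytes, as were 51.3% of all genes. The median change of the 5 was 1.55 (log2), against 0.41 over all genes. Gabarap was at 176, 184 and 189 RPM in small and 27.1, 30.8 and 25.4 RPM in the large ones, which is 2.68 higher on the log2 scale (SE 0.14, adjusted p = 6.36e-15). Gabarapl1 was at 50.5, 52.6 and 57.3 RPM in small and 7.54, 9.78 and 6.04 RPM in the large ones, or 2.65 higher on the log2 scale (SE 0.22, adjusted p = 3.53e-11). Again no small library overlapped a large one, as the choice of these genes required. Map1lc3b was at 149.9 ± 3.89 against 50.5 ± 5.04 RPM, and Gabarapl2 at 95.5 ± 2.63 against 41.03 ± 1.01 RPM. Map1lc3a changed least, at 143 ± 9.41 against 84.1 ± 5.83 RPM, and its change of 0.76 went to 0.15 after rescaling (adjusted p = 0.244). The sum over the 5 genes was 625 ± 11.7 RPM in P6 small and 211 ± 12.8 RPM in P6 large oocytes.

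**Figure D2:**
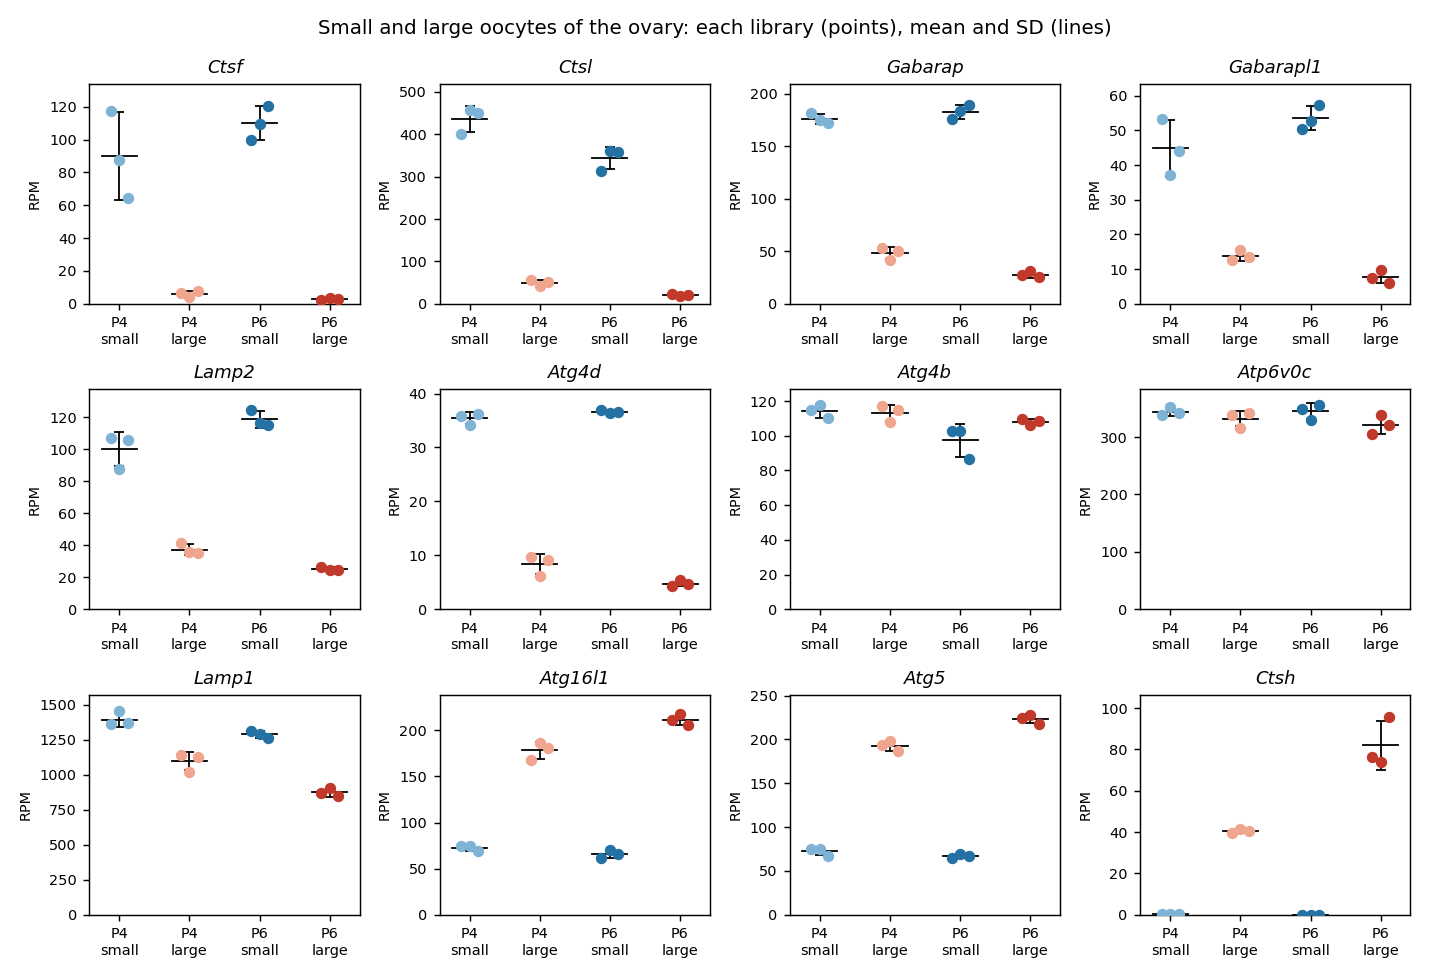
Level in RPM of 12 members in the P4 and P6 small (blue) and large (red) oocyte libraries; points are the 3 libraries of a group, horizontal lines their mean and bars the SD. Ctsf, Ctsl, Gabarap, Gabarapl1, Lamp2 and Atg4d are high in small oocytes, Atg5, Atg16l1 and Ctsh in large ones, and Atg4b and Atp6v0c lie close together in all 4 groups.

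Of the 18 Atg genes, 10 were higher in P6 small oocytes, 3 were lower and 5 were not called. Of all genes 51.3% were higher and 22.1% lower. The Atg median change was 0.47, near the all-gene 0.41, so the count is no result about the family. The conjugation genes Atg5 and Atg16l1, whose products work in 1 complex, were both higher in large oocytes. Atg5 was at 64.2, 69.4 and 66.9 RPM in P6 small and 224, 228 and 218 RPM in P6 large libraries, a log2 change of -1.73 (SE 0.07, adjusted p = 1.76e-16). Atg16l1 was at 61.2, 70.7 and 65.7 RPM against 211, 217 and 206 RPM, a log2 change of -1.67 (SE 0.08, adjusted p = 1.29e-15). Atg12, whose product is joined to ATG5, went the other way, at 271 ± 16.3 against 152 ± 9.81 RPM (log2 change 0.83). Atg2a, which encodes a lipid transfer protein of the growing membrane, was lower in small oocytes at 82.4 ± 4.47 against 167 ± 5.08 RPM. Its paralogue Atg2b was higher at 122 ± 5.53 against 66.9 ± 1.39 RPM, so the 2 paralogues moved in opposite directions, a split that held after rescaling (-1.62 and 0.25). The LC3 proteases also parted. Atg4d was at 36.9, 36.4 and 36.5 RPM in small and 4.30, 5.35 and 4.68 RPM in large libraries (log2 change 2.71), while Atg4b was at 97.4 ± 9.39 and 108 ± 1.70 RPM and was not called. Atg7, the activating enzyme of both conjugation routes, was called at 0.46 but lay at -0.14 after rescaling (adjusted p = 0.448), and its call ended without P6 large replicate 1 (0.36, adjusted p = 0.0512). Atg9a, a membrane protein carried on vesicles, was not called at 79.2 ± 1.27 against 69.4 ± 4.29 RPM and was lower in small oocytes after rescaling (-0.42, adjusted p = 0.00147).

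Of the pump genes tested, 8 of 10 in the V1 sector and 6 of 9 in the V0 sector (6 of 8 without the copy) were higher in P6 small oocytes and none was lower. Their median log2 changes were 0.59 and 0.63, close to the all-gene 0.41, and 51.3% of all genes were higher and 22.1% lower. The clearest were Atp6v1f at 142 ± 10.3 against 48.1 ± 0.110 RPM, Atp6v0b at 152 ± 3.70 against 55.8 ± 6.51 RPM, Atp6v1h at 211 ± 9.18 against 96.8 ± 4.89 RPM, and the catalytic subunit Atp6v1a at 116 ± 5.37 against 55.7 ± 2.25 RPM. These 4 remained higher after rescaling. Other subunits depended on the scaling. Atp6v1b2, the nucleotide-binding partner of subunit A, was at 251 ± 9.10 against 186 ± 16.2 RPM (0.43, or -0.18 after rescaling). Atp6v0c was at 345 ± 13.8 against 322 ± 16.96 RPM (0.10 and not called, or -0.51 after rescaling), and Atp6v0d1, which couples the ring to the stalk, was at 118 ± 4.88 against 66.6 ± 6.93 RPM (0.82, or 0.21 and not called). The members of the pump therefore did not change in equal measure between the oocyte sizes.

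The 2 Lamp genes differed in size of change. Lamp2 was at 125, 117 and 115 RPM in P6 small and 26.6, 24.8 and 24.7 RPM in P6 large libraries, a log2 change of 2.18 (SE 0.11, adjusted p = 7.28e-15). Lamp1 was at 1313, 1294 and 1263 RPM against 871, 906 and 845 RPM, a change of 0.56, which was -0.05 after rescaling (adjusted p = 0.592). At P4 the changes were 1.40 for Lamp2 and 0.35 for Lamp1. The stroma and theca markers summed to 6.63 to 29.0 RPM in P6 small and 1.39 to 1.78 RPM in P6 large libraries. Granulosa markers summed to 9.14 to 13.2 RPM in P6 small and 6.18 to 8.39 RPM in P6 large libraries. At P4 the granulosa markers summed to 17.1 to 21.4 RPM in small and 6.05 to 7.74 RPM in large libraries. The stroma and theca markers there summed to 9.18 to 18.4 and 1.73 to 3.36 RPM. Their part in the size results at either age, or in the difference between ages, was not tested. The macrophage and blood markers at P6 summed to 2.97 to 4.78 RPM in small libraries and 5.87 to 8.55 RPM in large ones. Of these markers only C1qb and Cd68 had a higher mean in large oocytes. C1qb had a mean of 5.64 RPM there against 2.07 RPM, and Cd68 one of 1.48 against 0.564 RPM. C1qa, C1qc, Lyz2, Aif1, Cd52, Hbb-bt and Hba-a1 were at 0 in every P6 large library. C1qc, Aif1 and Cd52 were at 0 in every P6 small library too.

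**Figure D3:**
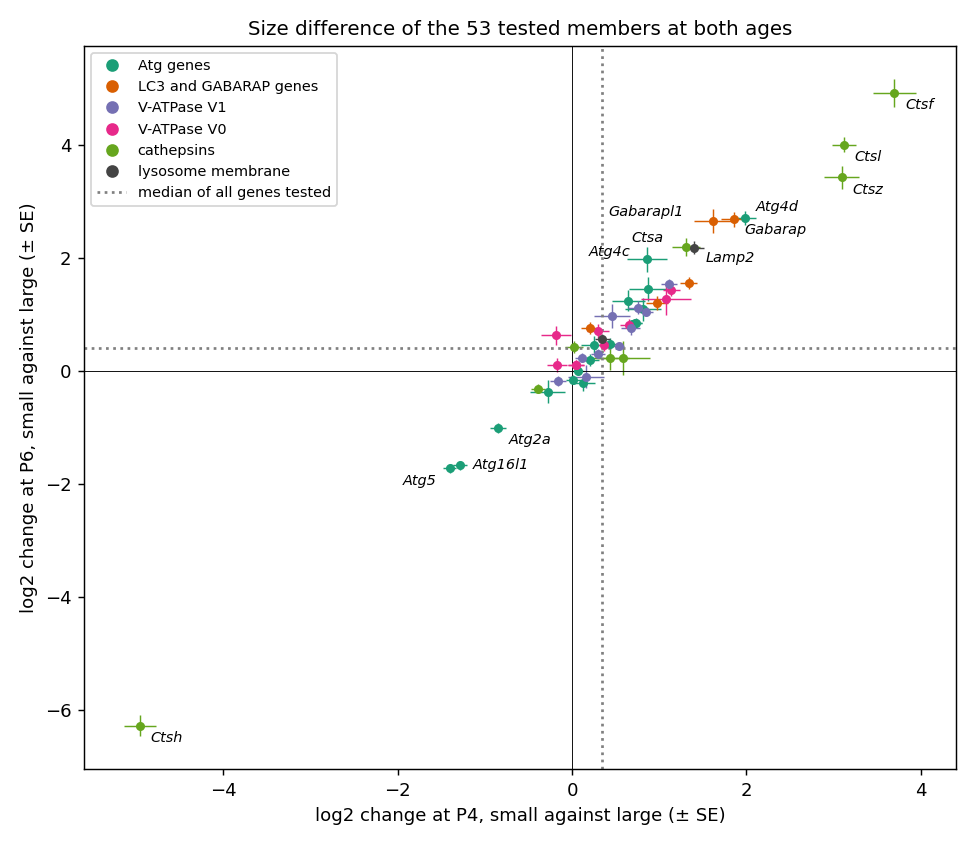
Log2 change of small against large oocytes at P4 (horizontal) and P6 (vertical) for the 53 tested members, with SE bars and colours by family; dotted lines mark the median of all genes tested, 0.34 at P4 and 0.41 at P6. Ctsf lies at 3.70 at P4 and 4.92 at P6, and Ctsh at the other end at -4.95 and -6.28.

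The size difference itself was compared between the 2 ages with an interaction term. It was more positive at P6 for 11 of the 53 members and more negative for 2, against 5.88% and 2.64% of all genes. After rescaling the calls were 7 and 3, against 3.15% and 5.19% of all genes. Before rescaling, the 11 that widened upwards include Ctsf, Ctsl, Ctsa, Gabarap, Gabarapl1, Map1lc3a, Lamp2 and Atg4d. The 2 that widened downwards were Ctsh and Atg16l1. For Lamp2 the difference between ages was 0.78 (SE 0.16, adjusted p = 0.00423) and for Ctsa 0.88 (SE 0.23, adjusted p = 0.0194). Of the 12 fits that each left out 1 library, 1 gave 4 calls (without P4 large replicate 1) and the others 6 to 13, with 6 without P4 large replicate 3.

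Genes of the same pathway outside the families were also read at P6, where 51.3% of all genes were higher in small oocytes and 22.1% lower. Of 20 initiation and receptor genes, 12 were higher and 5 lower. Becn1, a subunit of the lipid kinase complex of autophagy, was at 185 ± 8.14 against 69.8 ± 1.68 RPM, and the receptor gene Sqstm1 at 171 ± 13.5 against 60.5 ± 9.67 RPM. Pik3r4, another subunit of that kinase complex, was lower at 166 ± 2.14 against 386 ± 19.4 RPM. Of 32 lysosome genes, 23 were higher and 7 lower. The transcription factor gene Tfeb was higher at 12.6 ± 0.743 against 2.30 ± 0.776 RPM, while its relative Tfe3 was lower at 57.6 ± 5.16 against 166 ± 3.66 RPM. The 6 members with a CLEAR core shown above were all called higher in P6 small oocytes, with log2 changes from 0.43 (Ctsd) to 2.19 (Ctsa), and 3 of them (Atg3, Atp6v0e and Ctsd) lay below 0 after rescaling, when 34.3% of all genes were higher.

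Before birth, germ cells of E18.5 were set against those of E14.5. Of 53 members tested, 32 were higher at E18.5 and 11 lower, against 40% and 30% of all genes, with a member median of 0.59 and an all-gene median of 0.14. In the V0 sector 8 of 9 genes were higher with a median of 1.65, or 7 of 8 and 1.51 without the copy Atp6v0c-ps2. Atp6v0e, a small membrane subunit, went from 11.5 to 79.2 ± 9.57 RPM, a log2 change of 2.69 (SE 0.12, adjusted p = 3.25e-16). Atp6v0c went from 132, 99.4 and 90.8 RPM to 357, 335 and 317 RPM (log2 change 1.65). Atp6v0b rose by 1.84 and Atp6v0a1 by 1.76. Without the copy the summed V0 genes went from 410 ± 60.4 to 1001 ± 46.1 RPM.

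The LC3 genes rose over the same interval, Map1lc3a from 23.2, 19.6 and 16.1 RPM to 94.7, 111 and 83.2 RPM (log2 change 2.24, SE 0.10, adjusted p = 9.21e-16) and Map1lc3b from 29.6, 29.6 and 27.3 RPM to 99.4, 95.8 and 73.6 RPM. Gabarap was not called, at 93.7, 70.4 and 59.9 RPM against 68.6, 80.6 and 55.4 RPM, with libraries that overlapped. Ctsa rose from 10.7 ± 1.72 to 64.6 ± 15.4 RPM, Atg4a from 4.40 to 22.2 ± 1.89 RPM. Atg4c fell by 1.5004, Atg2a and Ctsz each by 0.68, Atp6v1g1 by 0.49, Ctsl by 0.36 and Atg13, a subunit of the initiating kinase complex, by 0.27. The call of Ctsl ended without E18.5 replicate 1 or 3 or E14.5 replicate 2 (adjusted p = 0.0662, 0.0603 and 0.0792). Stroma and theca markers summed to 6.54 to 10.0 RPM at E14.5 and 30.6 to 69.1 RPM at E18.5, and their part in the rise was not tested.

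Between E18.5 and P3, when primordial follicles form, 16 members rose and 12 fell, against 26% and 32.3% of all genes. Of the stroma and theca markers 4 of 6 were called lower (median -1.04), of the endothelial ones 3 of 4 and of the granulosa ones 3 of 8. The stroma and theca markers summed to 30.6 to 69.1 RPM at E18.5 and 8.05 to 20.4 RPM at P3, and their part in the member results was not tested. Gabarapl1, Gabarap and Ctsl rose at this step. Gabarapl1 went from 6.86, 9.26 and 6.81 RPM to 28.002, 40.9 and 43.5 RPM (log2 change 2.14, SE 0.22, adjusted p = 9.17e-09). Gabarap went from 68.6, 80.6 and 55.4 RPM to 176, 166 and 155 RPM (1.28, adjusted p = 3.06e-08), and Ctsl from 94.1, 103 and 95.2 RPM to 378, 377 and 332 RPM (1.88, adjusted p = 4.14e-11). For each of these 3 genes all P3 libraries lay above all E18.5 libraries, which their choice required. Ctsa rose by 1.01, Atg4c by 0.99 and Atg7 by 0.71. Among the pump genes, Atp6v0a1 fell by 1.08, Atp6v0b by 0.84, Atp6v0d1 by 0.61 and Atp6v1d by 0.56. Ctsd fell by 0.71 and Atg10, the conjugating enzyme for ATG12, by 0.74. The LC3 and GABARAP genes together went from 163 ± 26.1 RPM at E14.5 through 361 ± 54.5 RPM at E18.5 to 538 ± 12.4 RPM at P3.

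The culture course asked how the same genes moved in oocytes made from stem cells. From D5 to D11, 33 of 56 members rose and 1 fell, against 31.2% and 15% of all genes. After rescaling the calls were 25 and 5, against 26.2% and 20.4% of all genes. A fit of these 2 groups alone called 13 members, all higher, and its share over all genes is not given here. Of the 10 V0 genes 8 rose (7 of 9 without the copy), among them Atp6v0c from 79.7, 128 and 95.9 RPM to 218, 330 and 359 RPM (log2 change 1.57, SE 0.17, adjusted p = 8.61e-08). Gabarapl1 rose from 12.3, 14.7 and 11.8 RPM to 36.7, 80.3 and 33.0 RPM (1.76, or 1.37 without D11 replicate 2). The 1 member that fell was Atg13, by 0.34, a call that ended without D11 replicate 3 or D5 replicate 1 or 3. Of 29 members called both in this step and from E14.5 to E18.5 in the ovary, 25 moved in the same direction (86.2%, against 91.1% over all genes). The 29 are 93.5% of the 31 called in the culture step and 67.4% of the 43 called in the ovary step, among the 53 tested in both. Over all genes these shares were 77.3% and 50.3%.

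Several cathepsin changes at D11 rested largely on 1 library. Ctsb was at 80.4, 101 and 92.2 RPM at D5 and at 225, 1711 and 244 RPM at D11, where the high value is replicate 2. Its log2 change of 2.31 became 1.36 without that library (adjusted p = 1.30e-07). Ctsl was at 277, 861 and 273 RPM, and its change of 1.70 became 1.15. Ctss, encoding cathepsin S, a protease of antigen-presenting cells, was at 9.75, 98.2 and 6.13 RPM against 0.345, 0 and 0.817 RPM at D5 (3.87, or 2.70 without it). Atp6v0d2, a pump subunit of macrophages and osteoclasts, was listed at 0 in the 3 D5 libraries and at 3.97, 51.9 and 1.57 RPM at D11. Against the level of 3 reads per library it was at least 125-fold higher, or at least 18.1-fold without replicate 2. Ctsh was at 9.84, 21.99 and 5.11 RPM against a D5 mean of 0.475 RPM (2.99, or 2.49). Without that library Ctsa (0.46, adjusted p = 0.102), Ctsz (0.32, adjusted p = 0.364), Ctsd (0.33, adjusted p = 0.0772) and Atp6v0a2 (0.38, adjusted p = 0.0753) were no longer called. The 8 macrophage and blood markers tested had a median change of 3.09 and 6 were called higher, and the granulosa markers summed to 268 to 531 RPM at D11 against 27.2 to 41.2 RPM at D5. Their part in the D11 levels was not tested.

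**Figure D4:**
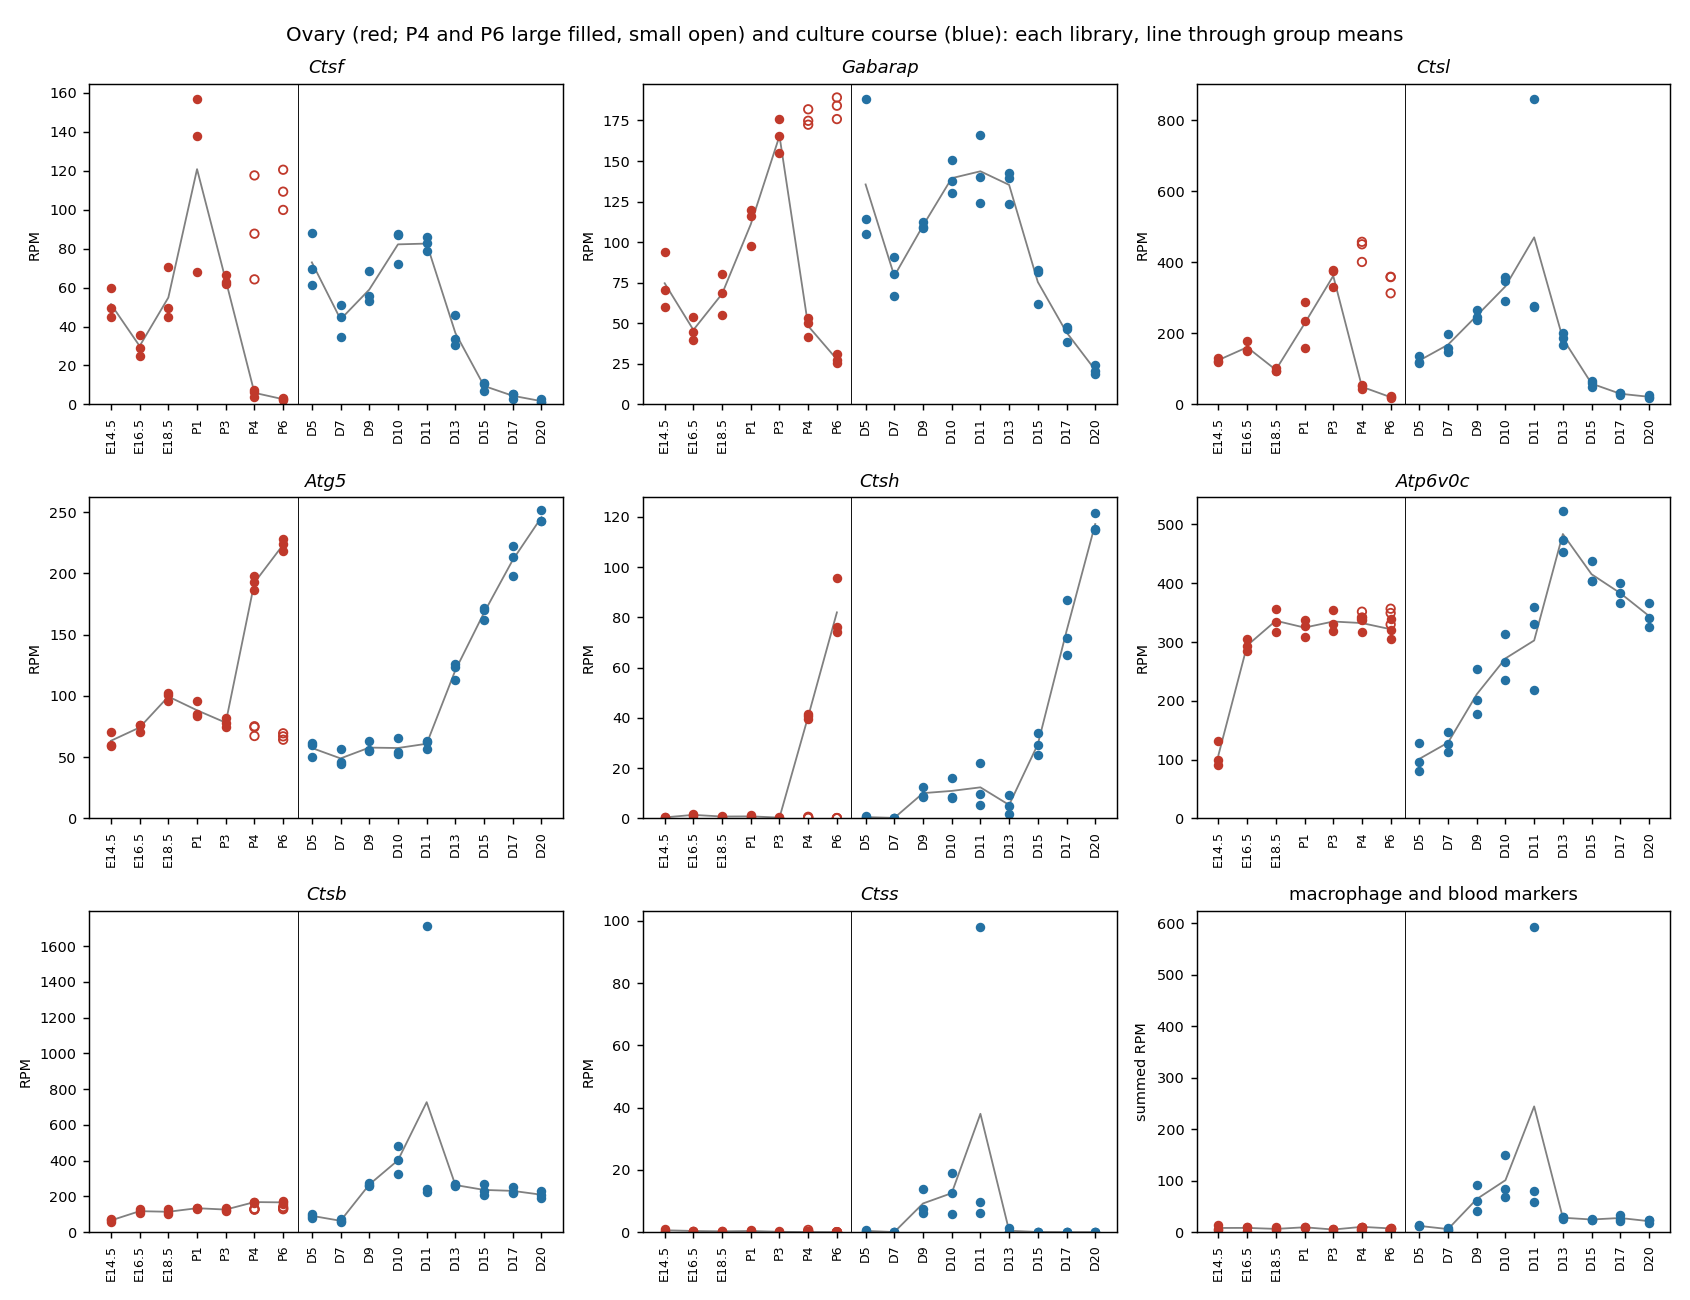
Level in RPM of 8 members, and the summed macrophage and blood markers, in each library of the ovary (red, with P4 and P6 small oocytes as open circles) and of the culture course (blue), with lines through group means. Ctsf, Gabarap and Ctsl drop and Atg5 and Ctsh climb in large oocytes and after D11, and D11 replicate 2 stands alone in Ctsb at 1711 RPM, Ctss at 98.2 RPM and the markers at 593 RPM.

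From D11 to D20, 11 members rose and 34 fell, against 22.5% and 55.1% of all genes. The all-gene median was -0.66, and after rescaling the member split was 20 higher and 24 lower, against 34.4% and 40.3% of all genes. Of the 11 cathepsins 10 fell and 1 rose, and of 32 other lysosome genes 24 fell and 3 rose. All 7 stroma and theca markers were called lower (median -5.38), as were 7 of 8 macrophage and blood markers (-3.08) and 6 of 10 granulosa markers (-3.68). The summed stroma and theca markers were at 187 to 1816 RPM at D11 and 1.63 to 3.12 RPM at D20, and the granulosa markers at 268 to 531 and 10.4 to 12.9 RPM. Their part in the member results was not tested. Ctsf went from 78.8, 82.9 and 86.1 RPM to 1.09, 2.83 and 1.17 RPM (log2 change -5.01, SE 0.24, adjusted p = 4.86e-15). Gabarap went from 124, 166 and 140 RPM to 18.54, 24.1 and 20.9 RPM (-2.70, SE 0.17, adjusted p = 7.49e-13), and Lamp2 from 225, 319 and 149 RPM to 24.6, 21.8 and 21.6 RPM (-3.23, or -2.97 without D11 replicate 2). Ctsl fell from a mean of 470 to 21.5 ± 3.89 RPM (-4.18, or -3.63 without that library), and Ctsz by 4.82 on the log2 scale (4.11 without it). Ctss, Ctsc (cathepsin C) and Ctso (cathepsin O) were listed at 0 in all 3 D20 libraries. Against the level of 3 reads per library Ctss was at least 187-fold and Ctsc at least 62.0-fold lower, or at least 39.0-fold and 30.2-fold without replicate 2. The fall of Ctsb ended as a call without that library (-0.17, adjusted p = 0.311).

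Ctsh, Atg5, Atg16l1 and Atg2a, which were higher in large oocytes of the ovary, rose. Ctsh went from 9.84, 21.99 and 5.11 RPM to 115, 115 and 122 RPM (3.36, SE 0.38, adjusted p = 1.96e-08), Atg5 from 62.2, 56.9 and 63.5 RPM to 252, 243 and 243 RPM (2.00, adjusted p = 7.73e-14) and Atg16l1 from 76.2, 67.1 and 81.2 RPM to 229, 236 and 240 RPM (1.64, adjusted p = 1.70e-12). Atg14, an autophagy subunit of the lipid kinase complex, rose by 1.14, Atg101 by 1.03 and Atg2a by 0.998. Of 34 members called both here and between P6 small and large oocytes, 31 went the way from small to large (91.2%, against 93.0% over all genes). The 34 are 82.9% of the 41 called at P6 and 81.0% of the 42 called here, among the 53 tested in both. Over all genes these shares were 81.6% and 77.7%. The share of all genes that went the way from small to large was thus as high as that over the members.

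Cultured oocytes of D20 were also set against P6 large oocytes of the ovary, and few members were called. Of 56 tested, 5 were higher at D20 and 3 lower, against 9.62% and 4.59% of all genes. After rescaling the calls were 4 and 4, against 8.68% and 7.49% of all genes. Gabarapl1 was at 13.8, 20.6 and 15.6 RPM at D20 and 7.54, 9.78 and 6.04 RPM in P6 large oocytes (1.01, SE 0.26, adjusted p = 0.00548). Ctsa was lower at 13.5, 21.1 and 12.3 RPM against 33.1, 31.2 and 31.7 RPM (-1.02, SE 0.22, adjusted p = 0.00111). Atp6v0e2 (0.72), Atp6v1g1 (0.48) and Atp6v1e1 (0.38) were also higher. Strain differed between the 2 sources, and its effect cannot be told apart from that of culture. There were 4 calls without D20 replicate 2, where Gabarapl1 was no longer called (0.86, adjusted p = 0.0543), and 5 without any 1 of the P6 large libraries.

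At D21 the study set hypoxia against normoxia in WT and Foxo3dNES Tg oocytes. CO2 differed together with oxygen, at 7% in hypoxia and 5% in normoxia, and their effects cannot be told apart. Foxo3, read first as a check of the transgene, was at 88.5 and 44.8 RPM in WT normoxia and 322 and 324 RPM in Tg normoxia, and at 128 and 123 RPM in WT hypoxia and 367 and 364 RPM in Tg hypoxia. All Tg libraries were above all WT libraries, but the adjusted p was 0.0618 in normoxia and 1 in hypoxia. WT Foxo3 was higher in hypoxia by 0.99 (adjusted p = 0.0348). WT normoxia replicate 2 stands apart, with macrophage and blood markers at 101 RPM against 15.3 RPM in replicate 1 and 12.2 to 13.6 RPM in WT hypoxia.

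In WT oocytes 5 of 55 members tested were higher in hypoxia and 2 lower, against 15.9% and 6.55% of all genes. After rescaling the calls were 4 and 3, against 11.2% and 10.0% of all genes. A fit of these 2 groups alone called 0, with 7 at an unadjusted p under 0.05, while edgeR called 8 and DESeq2 16. The shares of all genes called in these other fits are not given here. Ctsf was at 106 and 87.3 RPM in hypoxia and 54.5 and 40.7 RPM in normoxia (log2 change 1.02, SE 0.18, adjusted p = 0.0102). Atg2b was at 103 and 101 RPM against 58.6 and 33.5 RPM (1.18, SE 0.25, adjusted p = 0.0135), and Atg4d at 34.7 and 29.8 RPM against 16.7 and 14.6 RPM (0.999, SE 0.18, adjusted p = 0.0108). In all 3 genes both hypoxia libraries lay above both normoxia libraries, which was a condition for naming them. Ctsa was at 194 and 202 RPM against 132 and 128 RPM (0.60) and Atp6v1a at 78.9 and 84.6 RPM against 60.1 and 50.5 RPM (0.56). Ctsb was lower at 203 and 204 RPM against 246 and 334 RPM (-0.49, adjusted p = 0.0449). The last was Ctso, below 10 RPM and named after its values were seen, at 0.0470 and 0.219 RPM against 2.64 and 1.905 RPM.

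Leaving out 1 library at a time changed these calls. It leaves a group of 1 library, which is assumed to vary like the other groups. The shares of all genes called in these fits are not given here, so their counts are no result about the members. Without either WT hypoxia library no member was called, with 7 and 10 members at an unadjusted p under 0.05. Without WT normoxia replicate 1 there were 23 calls, 11 higher and 12 lower, and without replicate 2 there were 4, all higher (Ctsf, Ctsa, Atg4d and Atg2b). Granulosa markers, 5 of 8 of them called lower, summed to 15.6 and 23.1 RPM in WT hypoxia against 250 and 104 RPM in WT normoxia, and their part in the results was not tested.

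The LC3 and GABARAP genes, all called higher in P6 small oocytes, showed no call in WT hypoxia, and their median change was -0.12. Gabarap was at 227 and 210 RPM in hypoxia and 153 and 274 RPM in normoxia, Gabarapl1 at 95.2 and 81.5 RPM against 105 and 87.0 RPM, and Map1lc3b at 156 and 144 RPM against 145 and 164 RPM. The libraries overlapped in all 3 genes. Ctsl, at 206 and 170 RPM against 164 and 215 RPM, overlapped too. Atg5 was at 90.1 and 97.8 RPM against 140 and 123 RPM (-0.48, adjusted p = 0.0668) and Ctsh at 13.5 and 21.4 RPM against 46.2 and 33.3 RPM (-1.16, adjusted p = 0.0969). Of the 7 members called, 6 were also called between P6 small and large oocytes (85.7% of the 7 and 14.6% of the 41), all in the direction of small oocytes. Over all genes, 87.5% of those called in WT hypoxia and 25.6% of those called at P6 were called in both. Of the genes called in both comparisons, 92% shared a direction.

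**Figure D5:**
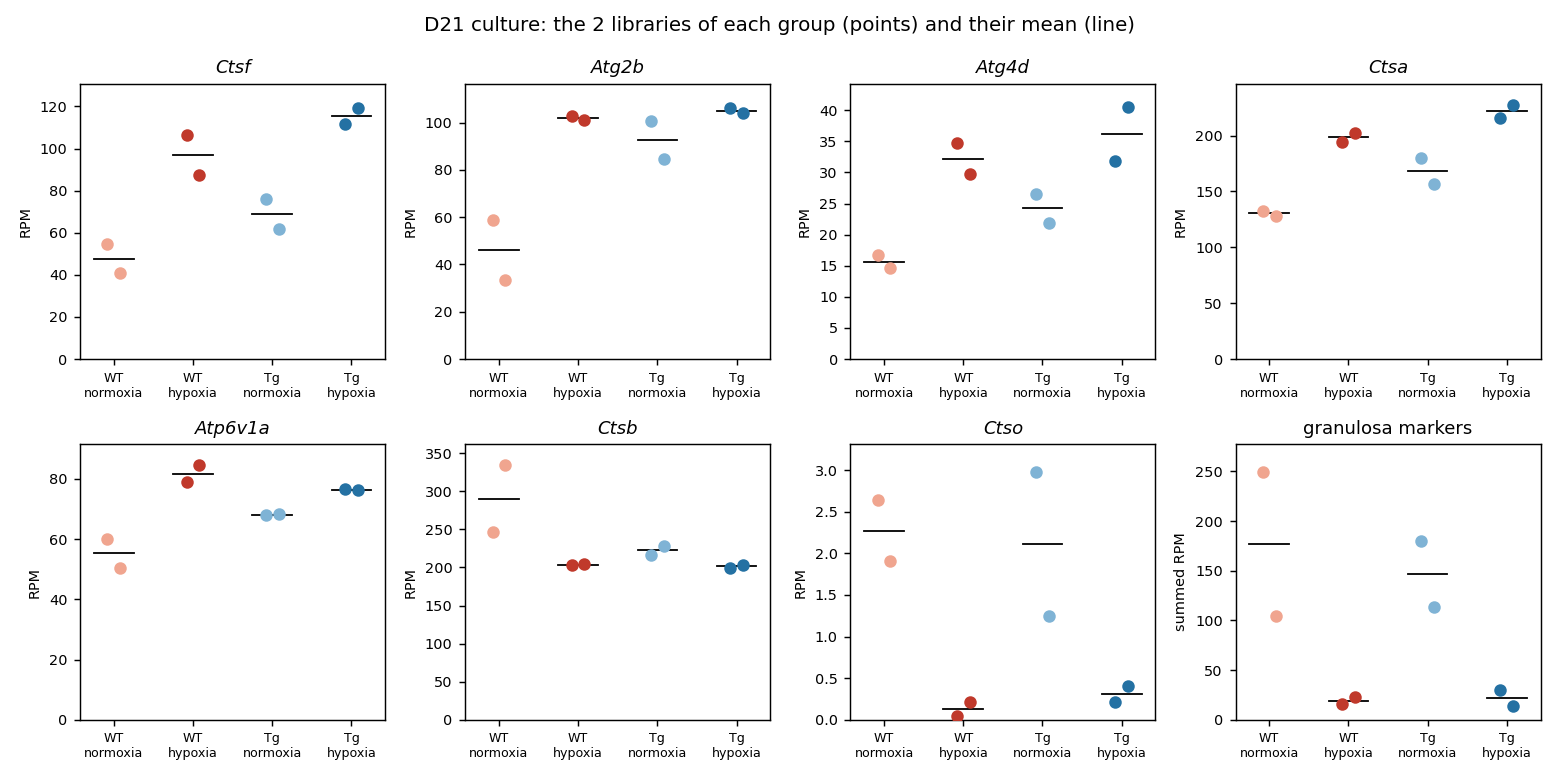
Level in RPM of the 7 members called in WT hypoxia, and the summed granulosa markers, in the 4 D21 groups; points are the 2 libraries of a group and lines their mean, with WT in red and Foxo3dNES Tg in blue. Both WT hypoxia libraries lie above both WT normoxia libraries for Ctsf, Atg2b, Atg4d, Ctsa and Atp6v1a and below them for Ctsb, Ctso and the granulosa markers.

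In Foxo3dNES Tg oocytes 0 of 55 members were called between hypoxia and normoxia by limma, against 0.153% of all genes higher and 0.869% lower. There were 5 members at an unadjusted p under 0.05, and edgeR called 1 and DESeq2 2. A fit of these 2 groups alone, with its own estimate of spread, called 18 of 51 members, 13 higher and 5 lower. The all-gene shares above belong to the main fit. Those of the fit of 2 groups are not given here, so the 18 cannot be read as a result about the members. Ctsf was at 111 and 120 RPM in hypoxia against 75.9 and 62.0 RPM in normoxia (0.74, adjusted p = 0.0905), Atg4d at 31.8 and 40.5 RPM against 26.6 and 21.9 RPM (0.55), and Atg2b at 106 and 104 RPM against 101 and 84.8 RPM (0.18). In these 3 genes the groups did not overlap, but with 2 libraries a group unchanged genes can also fail to overlap. The share over all genes was not counted. Granulosa markers, 3 of 8 of them called lower, summed to 14.1 to 29.6 RPM in Tg hypoxia against 113 to 180 RPM in Tg normoxia. Their part in the results was not tested.

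Between genotypes, 0 of 55 members were called in normoxia, against 0.00695% of all genes higher and 0% lower, with 9 members at an unadjusted p under 0.05. DESeq2 called 6 and edgeR 0, and the shares of all genes called by them are not given here. The number of members called changed when WT normoxia replicate 1 was left out. The single gene behind the 0.00695% was the transcription factor gene Scx, which is no member. Ctsf was at 75.9 and 62.0 RPM in Tg and 54.5 and 40.7 RPM in WT normoxia, and Atg2b at 101 and 84.8 RPM against 58.6 and 33.5 RPM. In hypoxia 0 of 55 were called, against 0.00695% and 0% of all genes, with 1 member at an unadjusted p under 0.05 and 0 calls by edgeR or DESeq2. There the member changes ran only from -0.30 (Ctsh) to 0.38 (Gabarapl1). The difference in hypoxia response between genotypes was called for 0 of 55 members and for 0% of all genes in either direction. Its 95% intervals reached from -2.03 (Atg2a) to 4.64 (Ctss) over the members. The 1 member at an unadjusted p under 0.05 was Atg2b, whose response was lower in Tg (95% interval -1.78 to -0.22 on the log2 scale, adjusted p = 0.647). Without WT normoxia replicate 1 there were 7 calls.

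The pump has alternative subunits encoded by separate genes, and the members among them are given by subunit. For the membrane subunit a, the kidney and inner ear form Atp6v0a4 stayed at or below a mean of 4.99 RPM. Atp6v0a1 went from 21.97 RPM at E14.5 through 82.4 RPM at E16.5 and 77.4 RPM at E18.5 down to 26.5 RPM in P6 large oocytes, while Atp6v0a2 went from 22.96 to 67.05 RPM between the same ends. For subunit d, Atp6v0d1 lay between 66.6 and 175 RPM in all groups, and Atp6v0d2 passed 1 RPM only at D9 (2.97 RPM), D10 (6.28 RPM), D11 (19.1 RPM) and in WT D21 normoxia (2.59 RPM). In that last group its 2 libraries were at 0.0628 and 5.12 RPM, and Ctss at 0 and 14.2 RPM, the higher value each time in the library with 101 RPM of macrophage and blood markers. For subunit C, Atp6v1c1 was between 90.8 and 241 RPM, and Atp6v1c2 was above 1 RPM only at E14.5, E16.5 and D5 to D11. For subunits B, E and G, Atp6v1b2, Atp6v1e1 and Atp6v1g1 were members, Atp6v1b1, Atp6v1e2 and Atp6v1g3 were among the genes below 1 RPM, and the neuronal form Atp6v1g2 stayed at or below 5.02 RPM.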

How the data were processed

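The deposited table holds RPM values (reads scaled to a library total of 1000000) made by the authors for 66 libraries and 24062 genes. Per the submitters' processing notes reads were put on build mm10 and counted with tools that include R 3.4.4, featureCounts 1.5.1, TopHat2 and Bowtie2 2.0.13. The annotation and the strand setting are not given in the sources used here. Values were whole multiples of 1 read in 100% of cases (tolerance 0.01 read), which gave each library's reads. Groups were taken from the sample labels. Where nothing says that libraries came from separate animals or cultures, p-values measure only the spread between libraries, which may be technical. Genes with a group mean of at least 1 RPM in 1 or more groups of a fit were tested with limma 3.58.1 (trend, R 4.3.3) on log2(RPM + 1), two-sided, 1 mean per group, Benjamini-Hochberg over all genes tested, with separate fits for ovary, culture course, both together and D21. The fits had 18, 18, 36 and 6 residual degrees of freedom. The pipeline was tested on simulated data. Alternatives were pseudocounts of 0.5 and 5, no filter, a 5 RPM filter, median-of-ratios scaling, a replicate block, fits of the compared groups alone, edgeR 4.0.16 and DESeq2 1.42.0 on the recovered reads, and leaving out each library. Counts of V0 genes without the copy Atp6v0c-ps2, and ranges over groups without D11 replicate 2, were added after seeing the data. Members, lists and named genes were chosen with earlier results of these data known. The rule for named genes took, per comparison, the 6 largest rises and 6 largest falls among certain called members. These had groups that do not overlap and a higher mean of at least 10 RPM. A fixed set of core genes at P6 and the pump paralogues were added. Other genes were named outside this rule with their values known. At P6 they include Ctsa, Atg2b, Atg4b, Atp6v1f, Atp6v0b and Atp6v1h. Figures were drawn with matplotlib 3.10.9.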

Additional observations from a re-analysis of the deposited data

Results flagged for a closer look

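For 13 of the 53 members tested the difference between small and large oocytes was not the same at P4 and P6, as tested by an interaction term (limma, adjusted over all genes). Each value is the log2 change of small against large at P6 minus that at P4, over 3 libraries a group. It was 1.23 for Ctsf (adjusted p = 0.0309), 1.12 for Atg4c (0.0313), 1.03 for Gabarapl1 (0.0359), 0.889 for Ctsl (0.00634), 0.885 for Ctsa (0.0194) and 0.828 for Gabarap (0.0107). It was 0.817 for Atp6v0e2 (0.0345), 0.780 for Lamp2 (0.00423), 0.723 for Atg4d (0.0135), 0.556 for Map1lc3a (0.0194) and 0.435 for Atp6v1f (0.0363). It was -1.33 for Ctsh (0.00309) and -0.387 for Atg16l1 (0.0338), which stood out more in large oocytes at P6.

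After median-of-ratios scaling 4 of the 13 were no longer called, namely Gabarapl1 (0.92, adjusted p = 0.0547), Atp6v0e2 (0.69, 0.0674), Map1lc3a (0.42, 0.102) and Atp6v1f (0.30, 0.164). With edgeR these 4 (adjusted p = 0.0625, 0.0882, 0.0982 and 0.165) and Ctsf (0.0537) were not called. When each library was left out in turn, Gabarap, Ctsl, Lamp2 and Ctsh stayed called, with highest adjusted p of 0.0432, 0.0288, 0.0202 and 0.0127. For the others the highest adjusted p lay between 0.0582 (Atg4d) and 0.114 (Atp6v1f).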

How the results depend on the processing

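Pseudocounts of 0.5 and 5 and a 5 RPM filter turned no direction and ended no call of the 89 single-gene results. In P6 small against large oocytes, rescaling by median-of-ratios, edgeR and DESeq2 gave, in that order, -0.140, -0.0717 and -0.140 for Atg7, -0.42, -0.36 and -0.42 for Atg9a, -0.19, -0.12 and -0.19 for Ctsd, -0.18, -0.11 and -0.18 for Atp6v1b2 and -0.51, -0.44 and -0.51 for Atp6v0c. Lamp1 was at -0.0519 after rescaling and -0.0520 with DESeq2. These methods differ from per-million scaling in how libraries are scaled. Fits of the compared groups alone gave 13 calls for D11 against D5, 0 for WT hypoxia (7 at an unadjusted p under 0.05) and 18 for Foxo3dNES hypoxia. DESeq2 gave 16 calls for WT hypoxia, 2 for Foxo3dNES hypoxia and 6 for Foxo3dNES against WT in normoxia. Foxo3dNES hypoxia had 1 call with edgeR and 1 after rescaling, and D20 against P6 large had 5 with a pseudocount of 5. The shares of all genes called are not given beside these counts. The cause of these shifts was not tested. Leaving out each library gave 40 to 42 calls at P6, 34 to 35 at P4, 41 to 46 for E18.5, 26 to 28 for P3, 30 to 36 for D11, 41 to 46 for D20 against D11, 4 to 7 for D20 against P6 large, 0 to 23 for WT hypoxia and for Foxo3dNES against WT in normoxia, 4 to 13 for the size difference between ages and 0 to 7 for the genotype difference in response. It gave 0 for Foxo3dNES hypoxia and for Foxo3dNES against WT in hypoxia. Same-numbered replicates correlated at -0.165 to 0.145 across genes, which cannot decide whether they share more than a number. A replicate block gave 42 calls at P6 (41 without) and 6 for WT hypoxia (7 without), and the crossed pairing, added after seeing the data, gave 6 for WT hypoxia and 0 for Foxo3dNES hypoxia. In the least deep library 3 reads correspond to 0.619 RPM.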
